A study of Mus musculus with 12 samples.

Results

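The S100 calcium-binding proteins were described in liver RNA through 9 genes that were chosen by symbol from the deposited gene table: S100a1, S100a4, S100a6, S100a8, S100a9, S100a10, S100a11, S100a13 and S100a16, 9 of 27912 genes. All 9 passed the filter on low counts. The livers came from wild-type (WT) males of strain C57BL/6 and from male CCR1 knockout (CCR1-KO) mice. Feeding began at 8 weeks of age and lasted 12 weeks, on the CL diet, which is high in cholesterol and fat and contains cholate. CCR1 is a chemokine receptor of myeloid and other leukocytes. RNA sequencing of polyadenylated RNA was used here for WT libraries 62, 63 and 64 and CCR1-KO libraries 65, 66 and 67, 6 of the 12 samples in the series. The other 6 samples, 3 WT and 3 labelled CCR1-LKO, were not analysed here. All 6 libraries share the diet, so each difference below is between genotypes on that diet. The labels do not give the deleted part of Ccr1 and do not say whether the mice were littermates. They also do not say whether each library is 1 animal, so the p-values measure the spread between these libraries.

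S100 proteins are small EF-hand proteins found in vertebrates, most of which work as dimers that expose a binding face when calcium is bound. Inside cells they bind annexins, cytoskeletal proteins and enzymes, and some are released and act on receptors such as RAGE (gene Ager) and TLR4. S100a8 and S100a9 together form calprotectin, a major protein of neutrophils and monocytes, and S100a4, S100a6, S100a10 and S100a11 are often described in bile duct cells, activated fibroblasts and macrophages of injured liver. Bulk RNA holds all of these cells, and fewer cells of a type cannot be told apart from less RNA per cell.

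The 6 libraries held 74699391 to 79154085 reads in genes, and 1 read was worth 0.0113 to 0.0167 CPM (the read count over the TMM-scaled library total, in the usual CPM unit). Ccr1 had 100, 23 and 123 reads in WT libraries 62, 63 and 64 and 11, 4 and 14 reads in CCR1-KO libraries 65, 66 and 67, with log2 fold change -2.72 ± 0.76 (SE) and adjusted p = 0.075. Log2 fold changes are CCR1-KO over WT ± SE, and adjusted p-values come from the quasi-likelihood test of edgeR, adjusted by Benjamini-Hochberg across 17729 genes, with a threshold of 0.05. In this comparison 6.44% of tested genes passed, 501 higher and 640 lower, which are 2.83% and 3.61%. Without scaling factors the split was 219 higher and 857 lower, and the median of all genes then shifted by -0.30 on the log2 scale. Without CCR1-KO library 65 the number past the threshold was 2419 in place of 1141, and without WT library 63 it was 102.

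The 9 genes lie on chromosome 3 (GRCm38) in an S100 cluster and a distal pair. S100a1 (90511034 to 90514392, minus strand) and S100a13 (90514435 to 90524581, plus) are head to head with 42 bases between them. S100a16 (90537254 to 90543151, plus), S100a4 (90603771 to 90606045, plus), S100a6 (90612882 to 90624181, plus), S100a8 (90668978 to 90670035, plus) and S100a9 (90692632 to 90695721, minus) follow. S100a11 (93520488 to 93526287, plus) and S100a10 (93555080 to 93564643, plus) lie 2824766 bases farther on, 28792 bases from each other. In GENCODE M21 the model Gm42674 overlaps S100a4 on the same strand, and no model overlaps the other 8.

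Promoter windows of 300 bases (250 before and 50 after an annotated start, from RefSeq, GRCm38.p6) were used for 7 of the 9 genes. The S100a11 window is shown because S100a11 was the member with the largest difference between genotypes. Capitals mark the AP-1 letters TGANTCA, which read the same on both strands, and they begin at bases 115 and 213 of the window. The second line shows the stretch that the S100a1 and S100a13 windows have in common, on the plus strand, which spans the gap between these genes. It holds none of the motifs searched.

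S100a11, chr3:93520246-93520545, plus strand: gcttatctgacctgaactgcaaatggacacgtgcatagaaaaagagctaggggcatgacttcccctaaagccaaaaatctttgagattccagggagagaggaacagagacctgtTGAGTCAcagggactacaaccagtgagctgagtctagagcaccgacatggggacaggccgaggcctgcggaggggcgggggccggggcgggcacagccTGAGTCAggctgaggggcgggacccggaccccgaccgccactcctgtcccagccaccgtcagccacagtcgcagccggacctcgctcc
S100a1 and S100a13, chr3:90514281-90514484, plus strand: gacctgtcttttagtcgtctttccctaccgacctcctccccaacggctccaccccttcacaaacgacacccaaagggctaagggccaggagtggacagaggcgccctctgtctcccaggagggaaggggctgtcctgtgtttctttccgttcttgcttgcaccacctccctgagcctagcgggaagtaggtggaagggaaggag

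The AP-1 letters occurred in 7.81% of 32851 promoter windows, and among the windows used for members only in that of S100a11 and in the second of the windows of S100a16. CpG dinucleotides numbered 15 in the S100a11 window, 14 in that of S100a13 and 11 in that of S100a1, against a median of 7 over all windows. The remaining members were under that median, with 6 in S100a6, 4 in S100a8, 2 in S100a9, and 2 and 4 in the windows of S100a16. The TATA letters TATAAA, searched on both strands, occurred in 13.6% of all windows. Of the 7 genes, S100a8 and S100a9 had them, and so did S100g, a further S100 gene described below. These 3 stretches of 60 bases, aligned on the TATA letters in capitals, are shown because S100a8 and S100a9 were the members of lowest WT level by FPKM and S100g had no read in CCR1-KO. The letters begin at base 221 of the S100a8 window and at base 251 of those of S100a9 and S100g. With 250 bases before the start, those of S100a9 and S100g thus lie at the annotated start itself. Those of S100a8 lie before the RefSeq start but inside the gene span given above. A match is a description of letters and no evidence of binding.

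S100a8, chr3:90669023-90669082, plus strand: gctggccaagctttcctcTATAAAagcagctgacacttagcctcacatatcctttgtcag
S100a9, chr3:90695680-90695739, minus strand: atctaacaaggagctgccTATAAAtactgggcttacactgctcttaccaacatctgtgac
S100g, chrX:162964558-162964617, minus strand: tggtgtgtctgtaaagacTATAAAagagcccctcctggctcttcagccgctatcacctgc

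S100a11 fell in CCR1-KO livers, which is 1 of 9 members against 3.61% of all tested genes. The other 8 did not pass the test, 0 rose (2.83% of all tested genes did), and all 9 fitted log2 fold changes were below 0. Across all tested genes 49.9% were below 0. The median was -0.33 for the 9 members and 0.00 for all tested genes. In 5 members (S100a1, S100a6, S100a10, S100a11 and S100a16) the highest CCR1-KO library was under the lowest WT library, as in 17.4% of all tested genes (32.6% were without overlap in either direction). In the other 4 (S100a4, S100a8, S100a9 and S100a13) the groups overlapped. CCR1-KO library 67 was the lowest of its group for 9 of 9 members and CCR1-KO library 65 the highest for 7 of 9. The summed CPM of the 9 genes was 283, 289 and 314 in WT libraries 62, 63 and 64 and 237, 171 and 133 in CCR1-KO libraries 65, 66 and 67. The TMM factors of those CCR1-KO libraries were 1.06, 0.874 and 0.779. By the deposited FPKM, library 67 was the lowest of its group for all 9. FPKM carries no such factor, so that is no separate check. Major urinary protein genes took 0.927% to 1.05% of reads in the WT libraries. They took 3.36%, 12.2% and 15.8% in CCR1-KO libraries 65, 66 and 67, and their part in the standing of library 67 was not tested.

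**Figure D1:**
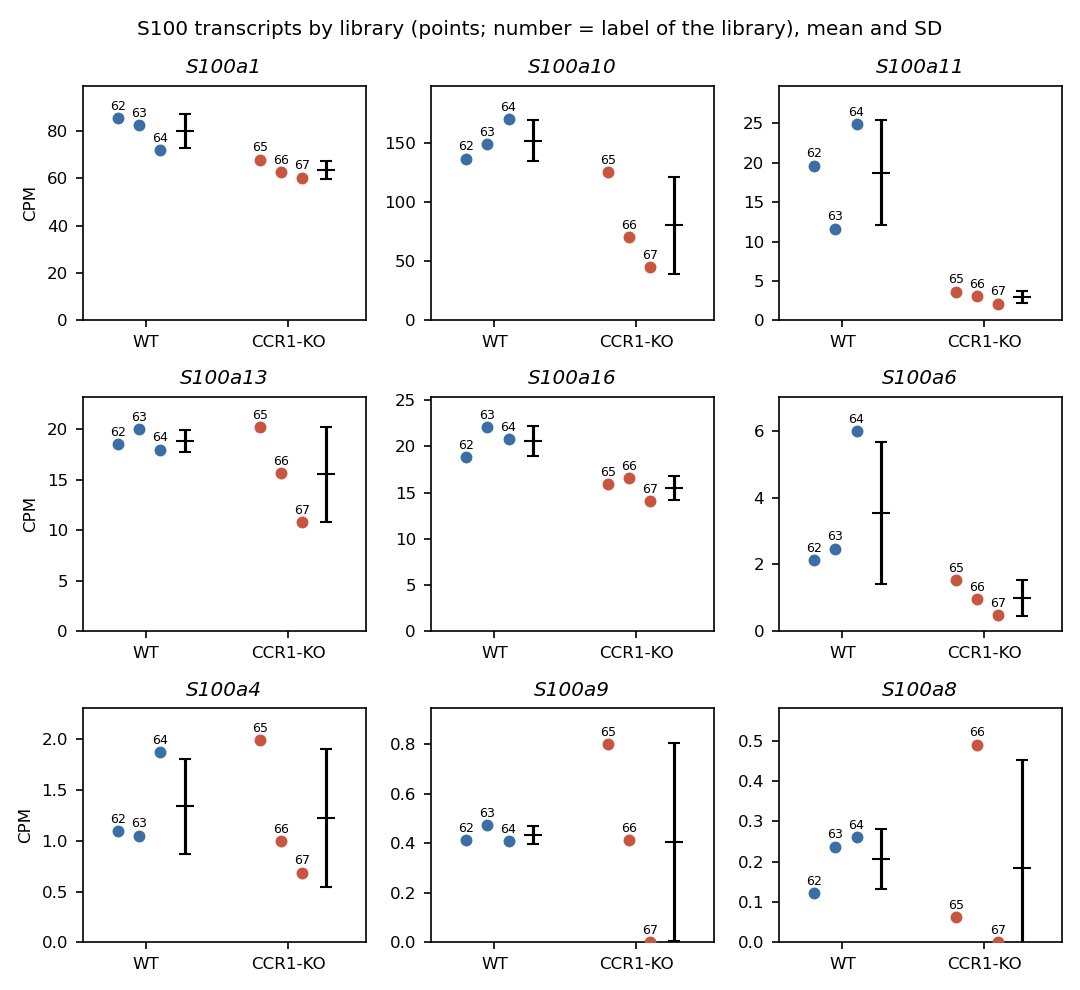
CPM of the 9 S100 genes in each library (blue WT, red CCR1-KO; numbers are library labels), with mean and SD at the right of each group, axes starting at 0. The CCR1-KO libraries of S100a11 sit between 2.12 and 3.65, all below the WT libraries at 11.7 to 24.9, while those of S100a4, S100a8, S100a9 and S100a13 overlap WT; SD bars below 0 are cropped.

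S100a11 and S100a10 are the annexin-binding members. S100a11 (ENSMUSG00000027907), which binds annexin A1 and has been linked to membrane repair and growth control, had 19.6, 11.7 and 24.9 CPM in WT libraries 62, 63 and 64. It had 3.65, 3.03 and 2.12 CPM in CCR1-KO libraries 65, 66 and 67. The lowest WT library, 63, was thus well above the highest CCR1-KO library. The CCR1-KO mean was 2.94 ± 0.768 against 18.7 ± 6.66 CPM in WT (SD, n = 3 each), 15.7% of WT, with log2 fold change -2.67 ± 0.32 and adjusted p = 0.0091. The call was kept in each of 12 alternative settings, 6 of which left out 1 library, with values from -2.94 to -2.41. A processed pseudogene, S100a11-ps, had 0, 2 and 0 reads in WT and 4, 2 and 6 in CCR1-KO, against 127 to 2189 for S100a11 itself. The sources used here do not say how reads that match both were assigned.

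S100a10 (ENSMUSG00000041959), also called p11, pairs with annexin A2 in a complex that anchors plasminogen and channels at the membrane. It had 137, 149 and 170.1 CPM in WT libraries 62, 63 and 64 and 125, 70.4 and 44.9 CPM in CCR1-KO libraries 65, 66 and 67. Library 65 lay close under the lowest WT library, and libraries 66 and 67 lay far below. The means were 80.1 ± 40.9 in CCR1-KO and 152 ± 16.99 CPM in WT, with log2 fold change -0.92 ± 0.33 and adjusted p = 0.14. Without CCR1-KO library 65 it passed, at -1.40 ± 0.22 and adjusted p = 0.010, and DESeq2 with all libraries gave -0.91 ± 0.32 and adjusted p = 0.031.

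S100a6 (ENSMUSG00000001025), or calcyclin, is a protein of proliferating epithelial and mesenchymal cells. It had 2.14, 2.47 and 5.98 CPM in WT libraries 62, 63 and 64 and 1.54, 0.965 and 0.485 CPM in CCR1-KO libraries 65, 66 and 67. WT library 64 stood above the other WT libraries, and the groups did not overlap. The means were 0.996 ± 0.527 against 3.53 ± 2.13 CPM, with log2 fold change -1.82 ± 0.53 and adjusted p = 0.087. It passed without CCR1-KO library 65 (-2.28 ± 0.57, adjusted p = 0.044) and by DESeq2 (-1.81 ± 0.52, adjusted p = 0.0061).

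S100a1, S100a13 and S100a16 had smaller fitted differences between genotypes than the 3 genes above. S100a1 (ENSMUSG00000044080), best known as a regulator of calcium cycling in heart muscle, had 85.4, 82.5 and 71.9 CPM in WT libraries 62, 63 and 64 and 67.8, 62.5 and 60.3 CPM in CCR1-KO libraries 65, 66 and 67. The groups were close but did not overlap, with log2 fold change -0.33 ± 0.12 and adjusted p = 0.14. Of 8 muscle marker genes, 2 passed the filter and 0 passed the test, Tnnt2 and Mylpf had mean WT levels of 0.189 and 0.508 CPM, and 5 had no read in at least 4 libraries. Their summed level was 0.602 to 1.59 CPM in WT and 0.659 to 1.51 in CCR1-KO.

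S100a13 (ENSMUSG00000042312), which takes part in the release of the leaderless proteins FGF1 and IL-1α, had 18.5, 20.02 and 17.96 CPM in WT libraries 62, 63 and 64 and 20.2, 15.7 and 10.8 CPM in CCR1-KO libraries 65, 66 and 67. Library 65 was above all WT libraries and the groups overlapped (log2 fold change -0.28 ± 0.21, adjusted p = 0.47). Its promoter window shares with that of S100a1 the 204 bases printed above. The ratio of S100a1 to S100a13 by FPKM was 4.12 to 4.75 in WT and 3.47, 4.11 and 5.75 in CCR1-KO libraries 65, 66 and 67 (exact two-sided permutation p = 0.90, 3 against 3 libraries, where 0.10 is the smallest possible).

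S100a16 (ENSMUSG00000074457), a widely expressed member that has been tied to fat cell differentiation, had 18.8, 22.1 and 20.8 CPM in WT libraries 62, 63 and 64. It had 15.9, 16.5 and 14.05 CPM in CCR1-KO libraries 65, 66 and 67, all below WT. The log2 fold change was -0.41 ± 0.13 with adjusted p = 0.098. Without scaling factors S100a1, S100a13 and S100a16 moved to -0.62, -0.53 and -0.70 on the log2 scale, and none of them passed.

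S100a4, S100a8 and S100a9 are the members most tied to leukocytes and fibroblasts, and none of them passed. S100a4 (ENSMUSG00000001020), known as fibroblast-specific protein 1 and also made by macrophages and lymphocytes, had 1.09, 1.05 and 1.87 CPM in WT libraries 62, 63 and 64 and 1.99, 0.996 and 0.686 CPM in CCR1-KO libraries 65, 66 and 67. The highest and the lowest of the 6 libraries were both CCR1-KO (log2 fold change -0.13 ± 0.46, adjusted p = 0.90).

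S100a8 (ENSMUSG00000056054) had 10, 21 and 23 reads in WT libraries 62, 63 and 64 and 5, 32 and 0 reads in CCR1-KO libraries 65, 66 and 67. S100a9 (ENSMUSG00000056071) had 34, 42 and 36 reads in WT and 64, 27 and 0 reads in CCR1-KO libraries in the same order. CCR1-KO library 67 had no read of either calprotectin gene, against a floor of 0.0502 CPM for each, set at 3 reads. For that count of 0 the exact 95% Poisson interval reached 0.0617 CPM. S100a8 had 0.490 CPM in library 66 and S100a9 had 0.800 CPM in library 65. The exact 95% Poisson interval for S100a9 was 49.3 to 81.7 reads in library 65 and 17.8 to 39.3 in library 66, and it covers counting error only. The log2 fold change was -0.17 ± 1.19 for S100a8 (adjusted p = 0.95) and -0.08 ± 1.03 for S100a9 (adjusted p = 0.97), so with these errors a change of several-fold in either direction would not have been detectable. With 1 library left out, S100a8 ran from -2.58 ± 1.26 (without CCR1-KO library 66) to 0.39 ± 0.94 (without 67), and S100a9 from -1.04 ± 1.17 (without 65) to 0.49 ± 0.50 (without 67), and neither passed.

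**Figure D2:**
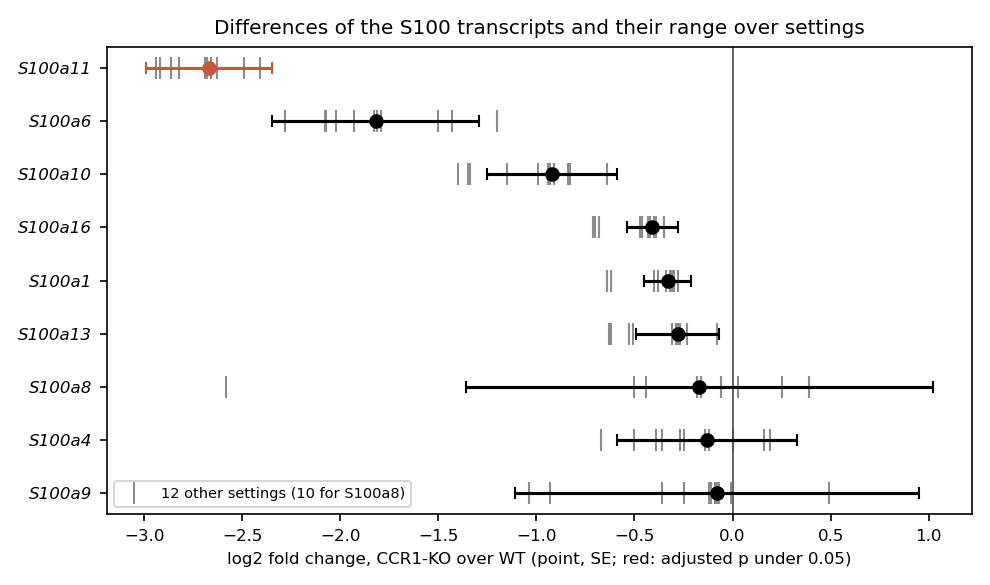
Log2 fold change of CCR1-KO over WT for the 9 S100 genes (points, bars are SE; red where adjusted p is under 0.05) with the values under alternative settings as grey ticks. S100a11 stays between -2.94 and -2.41 in all of them, while the ticks of S100a4, S100a8 and S100a9 reach 0 or above.

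Levels can be compared between genes only per transcript length, by the deposited FPKM. In the limma fits on FPKM the median of all genes shifted by -0.23 (offset 0.5) or -0.27 (offset 0.1) on the log2 scale. The FPKM below are therefore compared between genes, and differences between genotypes are those given above by CPM. In WT the order was S100a10 (127.8 ± 20.3 FPKM), S100a1 (117 ± 5.73), S100a11 (37.4 ± 14.3), S100a13 (26.8 ± 1.71), S100a16 (12.9 ± 1.46), S100a6 (2.66 ± 1.73), S100a4 (2.33 ± 0.927), S100a9 (0.827 ± 0.0802) and S100a8 (0.290 ± 0.125). The neighbours S100a10 and S100a1, S100a11 and S100a13, and S100a6 and S100a4 overlapped between libraries, and the other neighbours did not. In CCR1-KO the order was S100a1 (76.1 ± 16.5 FPKM), S100a10 (57.5 ± 37.8), S100a13 (18.5 ± 8.25), S100a16 (7.95 ± 1.65), S100a11 (4.86 ± 1.95), S100a4 (1.81 ± 1.28), S100a9 (0.697 ± 0.732), S100a6 (0.623 ± 0.419) and S100a8 (0.210 ± 0.305). There S100a13 and S100a16 were the one pair of neighbours that did not overlap. S100a1 and S100a10 together made up 71.9% to 77.7% of the summed FPKM of the 9 genes in WT and 77.9% to 80.8% in CCR1-KO. S100a11 made up 12.2%, 7.33% and 14.3% in WT libraries 62, 63 and 64 and 2.82%, 3.12% and 2.71% in CCR1-KO libraries 65, 66 and 67, with no overlap.

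**Figure D3:**
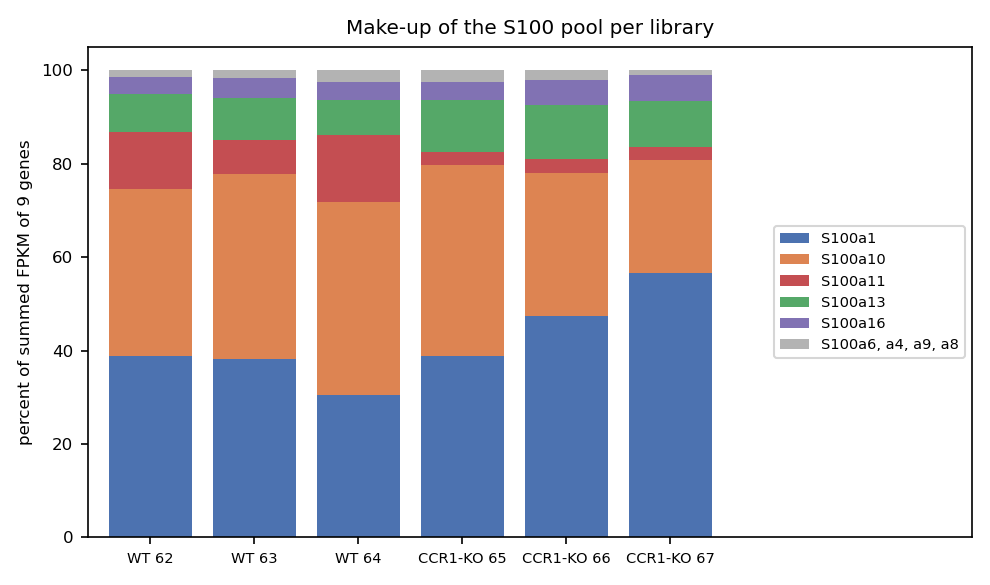
Stacked bars give, per library, the share of S100 genes in the summed FPKM of the 9 genes, in percent, with S100a4, S100a6, S100a8 and S100a9 joined in grey. The S100a11 segment is 7.33% to 14.3% in WT and 2.71% to 3.12% in CCR1-KO libraries, and S100a1 is 56.7% of the sum in CCR1-KO library 67, where S100a10 is at 24.2%.

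Of the other S100 genes in the table, S100g was the one past the threshold. S100g (ENSMUSG00000040808, chromosome X, 162961992 to 162964599, minus strand) encodes calbindin-D9k, a calcium buffer of absorptive epithelium that is induced by vitamin D in intestine. It had 26, 23 and 61 reads in WT libraries 62, 63 and 64 and 0 reads in each CCR1-KO library. Every WT library was thus above the limit of 3 reads that a count of 0 allows. With 3 reads taken as the floor for the CCR1-KO group as a whole, summed reads put S100g at least 29.0-fold lower there. That bound leaves out the spread between libraries. S100g passed the filter on low counts through its WT reads alone, so its edgeR call (adjusted p = 0.027) is a description only. DESeq2 gave it no adjusted p. The call was lost in 5 of the 6 fits that left out 1 library, with adjusted p from 0.056 to 0.12, and kept at 0.023 without CCR1-KO library 65. S100g lies inside Ctps2 on the opposite strand, which fell as well (log2 fold change -1.07 ± 0.20, adjusted p = 0.025), and whether counting used strand is not given. S100pbp, the gene of a protein that binds S100 proteins and no S100 gene itself, had 16.6, 16.3 and 12.4 CPM in WT and 20.3, 22.9 and 20.6 CPM in CCR1-KO libraries in label order (log2 fold change 0.49 ± 0.15, adjusted p = 0.090). S100b, S100a14 and S100a7a had at most 7 reads in any library and were not tested.

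Genes that S100 proteins act on were then read from lists. The shares to set beside each count here and in the lists below are 3.61% of all tested genes that fell and 2.83% that rose. Of 10 annexin and scaffold genes, 3 fell, 0 rose and 7 did not pass, with a median log2 fold change of -0.50. Anxa2, the partner of S100a10, had 65.3, 59.4 and 112 CPM in WT libraries 62, 63 and 64 and 16.6, 7.80 and 10.2 CPM in CCR1-KO libraries 65, 66 and 67 (log2 fold change -2.77 ± 0.34, adjusted p = 0.0098). It passed in all 12 alternative settings. The S100a10 to Anxa2 ratio by FPKM was 6.43, 7.70 and 4.69 in WT and 23.2, 27.8 and 13.5 in CCR1-KO (exact two-sided permutation p = 0.10, the smallest that 3 against 3 allow), with no overlap. Anxa1, the partner of S100a11, fell from 8.34 ± 1.16 to 3.40 ± 1.26 CPM, with log2 fold change -1.29 ± 0.29 and adjusted p = 0.042. That call was kept in 1 of 6 fits without a library and lost with no filter on low counts. The S100a11 to Anxa1 ratio by FPKM was 13.7, 9.17 and 14.9 in WT and 4.49, 5.10 and 5.82 in CCR1-KO (exact two-sided permutation p = 0.10). Anxa5, a calcium-dependent phospholipid binder, fell with log2 fold change -1.76 ± 0.27 (adjusted p = 0.016), a call kept in 3 of 6 fits without a library. Ahnak, the large scaffold that binds S100a10 with annexin A2, had 27.8 ± 3.78 in WT and 17.7 ± 3.67 CPM in CCR1-KO (log2 fold change -0.65 ± 0.18, adjusted p = 0.072).

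**Figure D4:**
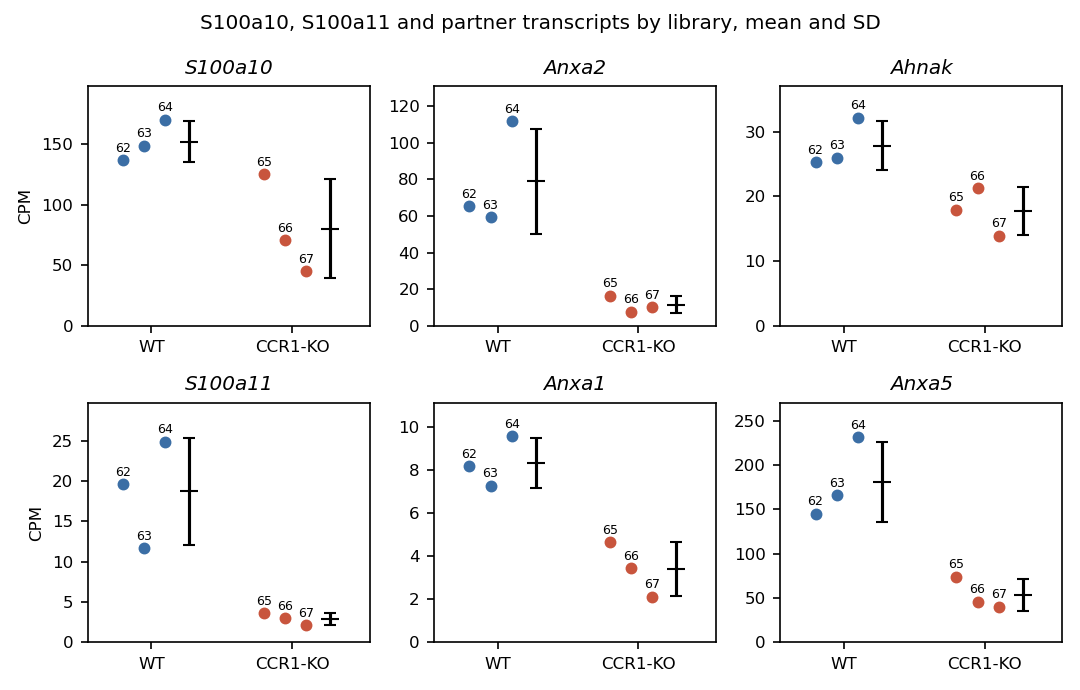
CPM of S100a10, S100a11 and 4 partner genes in each library (blue WT, red CCR1-KO; numbers are library labels), with mean and SD, axes starting at 0. Anxa2 is at 7.80 to 16.6 in CCR1-KO and 59.4 to 112 in WT, whereas S100a10 reaches 125 in CCR1-KO library 65, near the lowest WT library at 137.

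In the plasminogen system, which the S100a10 complex concentrates at the cell surface, 2 of 8 genes fell, 0 rose and 6 did not pass (median -0.60). The activators Plau (urokinase) and Plat (tissue activator) were those that fell, from 3.68 ± 0.629 to 0.747 ± 0.526 CPM (log2 fold change -2.28 ± 0.47, adjusted p = 0.034) and from 2.45 ± 1.88 to 0.348 ± 0.139 CPM (log2 fold change -2.82 ± 0.60, adjusted p = 0.037). With 1 library left out, Plau passed in 1 and Plat in 0 of 6 fits. Among cytoskeletal and nuclear targets 1 of 12 fell, 1 rose and 10 did not pass (median -0.13). Tropomyosin 1, Tpm1, fell with log2 fold change -1.06 ± 0.14 (adjusted p = 0.011). Cacybp, the calcyclin-binding protein that S100a6 binds, rose with log2 fold change 0.67 ± 0.14 (adjusted p = 0.032), which was lost without scaling factors, in both limma fits and in 5 of 6 fits without a library. Myh9, the non-muscle myosin heavy chain bound by S100a4, had 133 ± 30.1 in WT and 102 ± 10.2 CPM in CCR1-KO (adjusted p = 0.22).

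Of the 4 genes of the S100a13 release route, 1 rose, 0 fell and 3 did not pass (median 0.40). Fgf1, a growth factor of which S100a13 carries the protein out of the cell, had 95.7, 92.3 and 76.5 CPM in WT libraries 62, 63 and 64 and 161, 185 and 256 CPM in CCR1-KO libraries 65, 66 and 67 (log2 fold change 1.19 ± 0.19, adjusted p = 0.018). The call was lost without any of the 3 WT libraries. Of 10 genes of receptors and adaptors, 1 fell, 0 rose and 9 did not pass (median -0.22). The one that fell was Cd36, a fatty acid receptor that also binds S100a8/S100a9 with their lipid cargo (log2 fold change -2.66 ± 0.61, adjusted p = 0.045). Its call was kept in 1 of 6 fits without a library and lost with no filter on low counts. Tlr4 had 1.48 ± 0.0978 in WT and 1.06 ± 0.284 CPM in CCR1-KO (adjusted p = 0.38), and Ager had 0.461 ± 0.0897 and 0.200 ± 0.199 CPM (adjusted p = 0.51).

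Markers of cells that make S100 proteins were measured in the same libraries, and their part in the S100 differences was not tested. Again, 3.61% of all tested genes fell and 2.83% rose. Of 12 bile duct markers 10 were tested, 3 fell and 0 rose, with a median log2 fold change of -0.85. Their summed level was 147 to 221 CPM in WT and 55.9 to 70.4 in CCR1-KO. Most of it was Spp1, at 134, 111 and 180 CPM in WT libraries 62, 63 and 64 and 43.8, 37.1 and 44.5 in CCR1-KO libraries 65, 66 and 67. Spp1 had the smallest p (log2 fold change -1.76 ± 0.19, adjusted p = 0.0074), with Cd24a next (-1.34 ± 0.22, adjusted p = 0.017). All 10 tested were below 0, but Krt19, Krt7, Sox9 and Epcam did not pass (adjusted p = 0.19, 0.67, 0.37 and 0.060). Of 14 stellate cell and fibroblast markers 7 fell and 0 rose (median -1.03), with sums of 434 to 1015 CPM in WT and 215 to 236 in CCR1-KO. The 2 of smallest p were Col3a1 (-3.41 ± 0.49, adjusted p = 0.013) and Col1a2 (-2.77 ± 0.51, adjusted p = 0.024), and WT library 64 was the highest of all for both. The other 7 did not pass, among them Des, Acta2, Tagln and Thy1 (adjusted p = 0.54, 0.34, 0.14 and 0.66). Thy1 was above 0 (0.35 ± 0.43), and 13 of the 14 were below 0. Among the S100 members, library 64 was the highest of all for S100a6, S100a10 and S100a11. It was the lowest of WT for 3 others, S100a1, S100a9 and S100a13. Of 16 monocyte and macrophage markers 1 fell and 0 rose (median -0.82), with sums of 249 to 287 CPM in WT and 144 to 308 in CCR1-KO. That gene was Cx3cr1 (-2.64 ± 0.39, adjusted p = 0.014), and Ccr2 was next (-2.37 ± 0.58, adjusted p = 0.053). Of the 16, 14 were below 0. Clec4f and Timd4, markers of resident macrophages, were above 0 (0.37 ± 0.34 and 0.39 ± 0.54, adjusted p = 0.55 and 0.70). Vsig4, a further marker of resident macrophages, was at -0.07 ± 0.35 (adjusted p = 0.92).

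Neutrophils are the cells richest in S100a8 and S100a9. Of 16 listed neutrophil markers 15 were in the table, 8 were tested and 0 passed (median -0.27). The defining genes Ly6g, Mpo, Ltf, Camp and Ctsg had no read in at least 4 libraries. The sums over the list were 7.42 to 10.5 CPM in WT and 4.33 to 11.4 in CCR1-KO. Much of them came from Il1b (104 to 555 reads) and Csf3r (110 to 310 reads), which monocytes and macrophages also express and which are named here after their values were seen. Elane had 0.347 ± 0.268 in WT and 0.0427 ± 0.0371 CPM in CCR1-KO (adjusted p = 0.14) and Prtn3 had 0.517 ± 0.157 and 0.145 ± 0.0707 CPM (adjusted p = 0.10). In the endothelial list 1 of 10 fell (median -0.35; Plvap, -0.79 ± 0.15, adjusted p = 0.027), with Cdh5 next (-0.70 ± 0.26, adjusted p = 0.15), and sums of 212 to 296 CPM in WT and 173 to 231 in CCR1-KO. In the lymphocyte list 9 of 10 log2 fold changes were below 0 (median -0.50) and 0 of those passed. The exception, Cd4, rose (2.53 ± 0.34, adjusted p = 0.011), and Cd79b was next by p-value (-1.33 ± 0.59, adjusted p = 0.22), with sums of 3.66 to 7.98 and 4.25 to 6.51 CPM. In the blood cell list 0 of 7 passed (median -0.14), Pf4 was at -2.12 ± 0.55 (adjusted p = 0.062) and Alas2 at 0.58 ± 0.23 (adjusted p = 0.17), with sums of 292 to 495 and 245 to 672 CPM. Of 12 hepatocyte markers 5 rose (median 0.59), led by Pck1 (1.98 ± 0.16, adjusted p = 0.0024) and Tat (1.80 ± 0.27, adjusted p = 0.015), and the other 7, with Alb among them, did not pass. Their sums were 77210 to 93452 CPM in WT and 80997 to 99974 in CCR1-KO.

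Position on the chromosome was described as well. Between S100a1 and S100a10, over 3.05 Mb, the table listed 31 genes, of which 15 were tested and 6 of those were no S100 gene. S100a11 and Sprr1a, a small proline-rich protein gene of injured epithelium (92483952 to 92485895), were the 2 that fell, and 0 rose. Across all tested genes 3.61% fell and 2.83% rose. Sprr1a had 469, 389 and 734 reads in WT libraries 62, 63 and 64. It had 9, 0 and 4 reads in CCR1-KO libraries 65, 66 and 67, so it passed the filter on low counts through its WT reads alone. S100a10, 28792 bases from S100a11, had 52.8% of its WT level, and S100a11 15.7%. The S100a10 to S100a11 ratio by FPKM was 2.93, 5.38 and 2.88 in WT libraries 62, 63 and 64 and 14.5, 9.79 and 8.92 in CCR1-KO libraries 65, 66 and 67 (exact two-sided permutation p = 0.10).

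Among 11629 tested genes with a mean of at least 1 CPM, those whose log2 CPM over the 6 libraries was most like that of S100a11 were Cyp2b13 (Pearson r = 0.998), Tnfrsf23 (r = 0.998) and Lrrc39 (r = 0.997). The 6 points fall into 2 groups and come from the same libraries, so r is a description of likeness in order and size. Cyp2b13, a cytochrome P450 with close paralogs, had 10.03, 4.83 and 16.3 CPM in WT libraries 62, 63 and 64 and 1.11, 0.889 and 0.435 CPM in CCR1-KO libraries 65, 66 and 67. In it, as in S100a11, library 64 was the highest and 63 the lowest of WT, and 65 the highest and 67 the lowest of CCR1-KO. The choice of Cyp2b13 by r largely fixed this shared order. Tnfrsf23, a decoy receptor of the TNF family, fell (log2 fold change -2.82 ± 0.44, adjusted p = 0.017), while Lrrc39 did not pass (log2 fold change -0.84 ± 0.22, adjusted p = 0.066).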

How the data were processed

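Liver RNA libraries, 6 in all, were analysed (WT 62 to 64, CCR1-KO 65 to 67); the other 6 samples of the series were not analysed here. The submitters' processing notes list StringTie 2.1.6, HISAT2 2.2.1, edgeR, DESeq2 and cutadapt 1.9 without saying which step each served. The notes name a human build, while identifiers and coordinates in the table are of mouse and those of the 9 members equal GENCODE M21 (GRCm38). Per the file headers, the deposited table holds raw read counts and FPKM (fragments scaled by transcript length and depth) made by the authors. Counts were tested as deposited with edgeR 4.0.16 in R 4.3.3 (filterByExpr, minimum count 10 and total 15; TMM; glmQLFit and glmQLFTest). SE was taken as the size of the log2 fold change divided by the root of F. FPKM served for levels between genes and for limma 3.58.1 on log2(FPKM + 0.5) or + 0.1, with FPKM of at least 0.5 in 3 libraries; such fold changes understate the change of low genes. DESeq2 1.42.0, median-ratio factors, no scaling factors, no filter and leaving out each library were further alternatives. The counts test was tested on simulated data. Members and gene lists were chosen with earlier results of these data known. Named were the members, other S100 genes, listed partners past the threshold, the direct partners, and the 2 markers of smallest p per list; likeness used log2(CPM + 0.1). Replicate pairs differed by more than sampling noise. The chi-square per degree of freedom was 68.7 to 179.6 for WT pairs and 253 to 691.7 for CCR1-KO pairs, highest for libraries 65 and 67. The promoters of the other 2 members are not reported here.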

Additional observations from a re-analysis of the deposited data

How the results depend on the processing

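No paired analysis was possible because the WT and CCR1-KO libraries share no replicate number. The count of 1141 genes past the threshold became 2548 with DESeq2 and 735 with no filter on low counts, and ran from 102 to 2419 with 1 library left out. The count of S100 members past it, 1 (S100a11), became 3 with DESeq2 and ran from 1 to 3 with 1 library left out; S100a6 and S100a10 were added in both cases. S100a1, S100a6, S100a10, S100a11, S100a13 and S100a16 kept a negative log2 fold change in all 12 alternatives. With 1 library left out S100a4 ran from -0.67 to 0.19, S100a8 from -2.58 to 0.39 and S100a9 from -1.04 to 0.49. S100a4 turned to 0.19 without WT library 64, 0.00 without CCR1-KO library 66 and 0.16 without CCR1-KO library 67. S100a8 turned to 0.03, 0.25 and 0.39 without WT library 64, CCR1-KO library 65 and CCR1-KO library 67, and S100a9 to 0.49 without CCR1-KO library 67; the cause was not tested. S100a8 had no value in the limma fits, where it was under the FPKM minimum. With 3 libraries per group, and few reads for S100a8, S100a9 and S100g, moderate changes may be missed.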
